A study of Homo sapiens with 18 samples.

Results

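The non-hypoxic cells of SCC154, a head and neck squamous carcinoma line that carries human papillomavirus (HPV), were compared with those of FaDu, a line of the same kind without the virus. The members are the 9 libraries that the labels title as non-hypoxic, 5 of SCC154 and 4 of FaDu, out of 18 in all. The other 9 (4 of SCC154, 5 of FaDu) hold the post-hypoxic cells of the same lines. Both lines carried a hypoxia fate-mapping reporter, in which a cell that meets low oxygen switches permanently from the red protein DsRed to the green protein GFP. They were grown as spheroids in ultra-low attachment plates and dissociated with trypsin, and DsRed-positive cells, which had not switched, were collected by flow cytometry as non-hypoxic and GFP-positive cells as post-hypoxic. Sorted cells were kept and passaged in normal oxygen before total RNA was taken for 3′-end sequencing (QuantSeq), which counts tags near the 3′ end of each transcript. Each HPV status is represented by 1 line, so HPV status, the patient the line came from and the history of the line in culture cannot be told apart. Every difference below is a difference between SCC154 and FaDu. Viral transcripts are not analysed here. The labels do not say whether replicates of a line came from separate cultures, so the p-values rest on a spread between libraries that may be technical.

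As background, the oncoproteins E6 and E7 of high-risk HPV act on host cell-cycle checkpoints, E7 by binding the RB family. The inhibitor p16, encoded by CDKN2A, is used in the clinic as a surrogate for an HPV-driven tumour because RB normally holds it down. HPV-negative carcinomas of this region usually pass the same checkpoint by another way, through loss of CDKN2A and gain of the CCND1 region on the long arm of chromosome 11. Stratified squamous epithelium keeps KRT5 and KRT14 in its basal layer and turns to other keratins, cornified-envelope proteins and barrier lipids as cells move up.

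The non-hypoxic libraries held 1731098 to 2378109 counts, and 12291 genes passed the filter on low counts. All 11 epithelial markers (EPCAM, CDH1, KRT5, KRT14, KRT6A, KRT17, KRT8, KRT18, KRT19, TP63 and SFN) were present in both lines, with a summed level of 2992 to 3425 CPM (counts scaled to a common library size) in FaDu and 3145 to 3553 CPM in SCC154. Of 11 fibroblast markers 5 had no count in any of the 9 libraries, COL1A2, COL3A1, DCN and LUM among them, and the list summed to 3.33 to 6.49 CPM in FaDu and 4.44 to 6.94 CPM in SCC154. A shorter list of 6 fibroblast markers summed to 0 to 2.00 CPM in FaDu and 3.90 to 5.80 CPM in SCC154, without overlap. COL1A1 in it had 7 counts in FaDu and 46 in SCC154. Of 12 immune markers 5, CD3E among them, had no count, and the sums were 2.16 to 6.49 CPM and 1.24 to 3.46 CPM. The 2 lists that follow were higher in SCC154. Of 9 endothelial markers 3, KDR among them, had no count, and the sums were 1.43 to 3.48 CPM in FaDu and 10.6 to 17.4 CPM in SCC154, where the junction protein ESAM made up 10.5 ± 3.39 CPM against 3 counts in FaDu. Of 10 melanocyte and neural markers 5 had no count, MLANA, TYR and SOX10 among them. The sums of that list were 3.33 to 10.2 CPM and 77.6 to 101 CPM, with the transcription factor MITF at 2.32 ± 0.687 and 84.6 ± 10.4 CPM. The part of such cells in the differences below was not tested. In bulk RNA of this kind, fewer cells expressing a gene and less of its RNA per cell cannot be told apart. Levels below are CPM, given as mean ± SD over the 4 FaDu and 5 SCC154 libraries, and log2 fold changes are SCC154 minus FaDu with their standard error. CPM is not divided by transcript length, so levels are compared between lines for 1 gene and not between genes.

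The lines differed in most of what they expressed. With edgeR's quasi-likelihood test and a Benjamini-Hochberg adjusted p under 0.05, 4235 genes were higher in SCC154 (34.5% of those tested) and 4237 were lower (34.5%), 68.9% together. At least a 2-fold difference was called for 2557 genes higher (20.8%) and 2049 lower (16.7%), 37.5% together. By the fitted fold, differences of at least 32-fold were called for 268 genes higher and 300 lower. These counts include genes at 0 in 1 line, where the fitted fold can exceed the lower bound described below. HOXB5, with no count in SCC154, had a fitted log2 fold change of -7.07 but a bound of 27.7-fold. The 9 libraries fell wholly apart by line for 56.5% of genes tested, 28.6% with SCC154 higher and 27.8% with it lower. These shares are the background for every list below: a list with about 34.5% of members called in each direction reads like the genes tested as a whole. The median log2 fold change over all genes tested was -0.01 and the median absolute value 0.72. List members were called at the same threshold. Across the 246 called genes whose values are given here the largest adjusted p was 0.0233. The lines overlapped in at least 1 library for 9 of them (APOBEC3B, CALR, CCNB1, EGFR, FERMT1, HBEGF, IFNLR1, KRT8 and NADSYN1) and not for the other 237. Many of these genes were named for large differences or for no overlap, so this split partly follows from the selection.

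**Figure D1:**
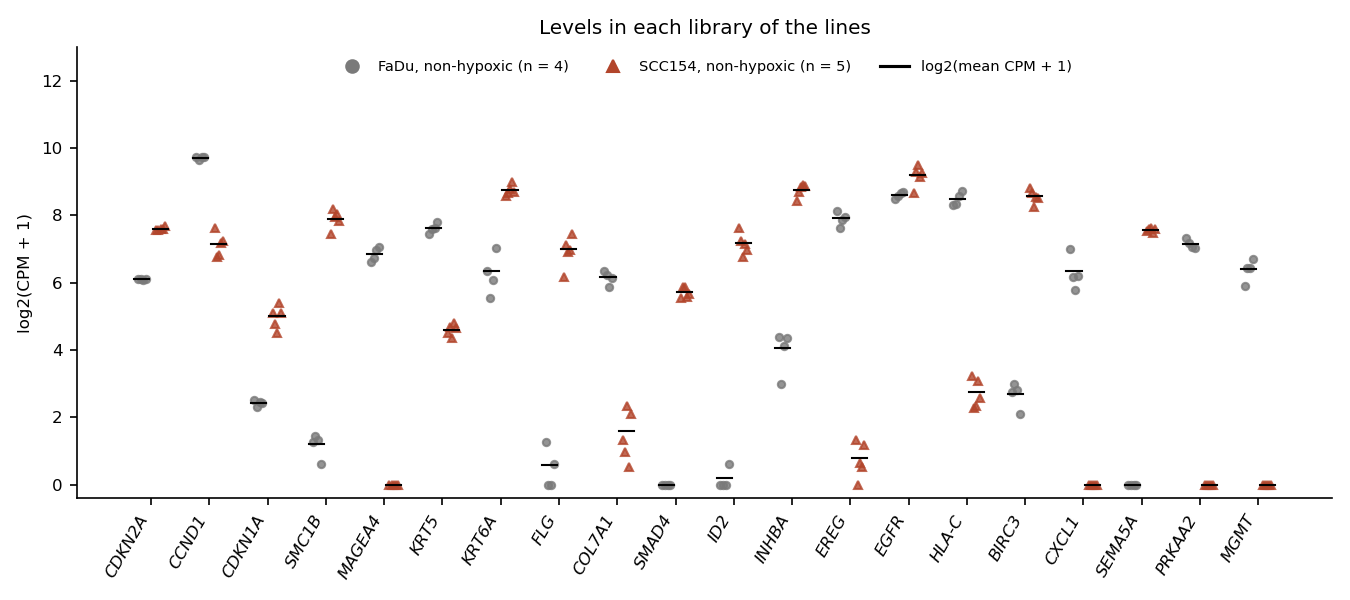
Level of 20 genes in each non-hypoxic library, as log2(CPM + 1) on the vertical axis; circles are the 4 FaDu libraries, triangles the 5 SCC154 libraries and bars the log2 of the mean CPM plus 1. EGFR overlaps between the lines in 1 SCC154 library, and the other genes shown do not overlap. SMC1B, FLG, SMAD4, ID2, SEMA5A, MAGEA4, EREG, CXCL1, PRKAA2 and MGMT sit at or near 0 in 1 of the lines.

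A set of genes was read in one line and had no count in the other. Among genes with a mean of at least 5 CPM in one line, 92 had no count in any non-hypoxic FaDu library and 164 had none in any SCC154 library, of which 78 and 133 are annotated as protein coding (Y-linked genes are not counted). The post-hypoxic libraries of the same line entered the selection only through the shared filter on low counts and the scaling. In them 66 of the 92 and 121 of the 164 also had no count. A count of 0 allows a level of up to 3 counts over the group, which is 0.363 CPM in FaDu and 0.284 CPM in SCC154. Fold differences against 0 are given as lower bounds from that floor. These limits and the intervals below cover counting error only.

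The start regions of 4 genes at or near 0 in one of the lines are printed here. In 3 of them a second transcript begins inside the same window and was low or absent in the same line. The fourth, MGMT, is a gene whose start region is known for silencing by DNA methylation. Each is the 300-base RefSeq window of GRCh38.p14 from 250 bases before the gene's start to 50 bases after it, written 5′ to 3′ on the gene's strand, with every CpG dinucleotide in capitals. The windows are chr22:45413550-45413849 (minus strand) for SMC1B, chr5:9546026-9546325 (minus) for SEMA5A, chr5:88268796-88269095 (minus) for TMEM161B and chr10:129466991-129467290 (plus) for MGMT.
SMC1B: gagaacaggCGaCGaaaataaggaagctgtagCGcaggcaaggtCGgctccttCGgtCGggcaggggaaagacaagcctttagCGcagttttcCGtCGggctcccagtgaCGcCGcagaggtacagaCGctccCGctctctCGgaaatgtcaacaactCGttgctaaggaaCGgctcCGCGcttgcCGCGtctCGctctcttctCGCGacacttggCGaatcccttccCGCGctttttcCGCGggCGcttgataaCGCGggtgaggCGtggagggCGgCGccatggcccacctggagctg
SEMA5A: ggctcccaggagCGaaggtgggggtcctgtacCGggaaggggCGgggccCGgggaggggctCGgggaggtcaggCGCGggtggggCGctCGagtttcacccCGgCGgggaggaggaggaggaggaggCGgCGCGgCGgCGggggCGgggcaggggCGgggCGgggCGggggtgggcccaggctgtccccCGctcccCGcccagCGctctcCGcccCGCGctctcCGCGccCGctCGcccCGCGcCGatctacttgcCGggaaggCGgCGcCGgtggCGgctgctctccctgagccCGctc
TMEM161B: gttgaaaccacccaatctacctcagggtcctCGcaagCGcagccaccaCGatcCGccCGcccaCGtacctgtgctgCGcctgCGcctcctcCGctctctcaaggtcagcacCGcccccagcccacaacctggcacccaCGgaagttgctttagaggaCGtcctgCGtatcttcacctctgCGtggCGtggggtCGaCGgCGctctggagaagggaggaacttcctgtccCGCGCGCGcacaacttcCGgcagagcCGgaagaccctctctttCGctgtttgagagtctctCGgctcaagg
MGMT: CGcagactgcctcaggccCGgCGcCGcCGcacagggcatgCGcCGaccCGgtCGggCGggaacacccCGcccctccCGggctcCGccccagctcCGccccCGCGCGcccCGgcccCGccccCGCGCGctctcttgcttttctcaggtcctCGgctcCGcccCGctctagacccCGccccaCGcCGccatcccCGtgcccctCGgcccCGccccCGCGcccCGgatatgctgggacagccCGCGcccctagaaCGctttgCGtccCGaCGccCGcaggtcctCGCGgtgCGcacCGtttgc
They hold 34, 39, 26 and 45 CpG dinucleotides, against a median of 27 over the 9694 tested genes with such a window. Among start regions of the genes without a count, a ratio of observed to expected CpG of at least 0.6 was found in 62.2% of 74 windows for FaDu and 66.9% of 124 for SCC154, and over all genes tested in 84.8%. These shares were not tested, and the 4 printed windows do not stand for the rest. The windows are set on RefSeq starts, and the starts given next are those of GENCODE. RIBC2 starts at 45413691 inside the first window, 72 bases from the GENCODE start of SMC1B. The start of the small RNA host gene SNHG18 lies at 9546200 inside the second and that of the divergent transcript TMEM161B-DT at 88268895 inside the third, all on the opposite strand. The shared windows were looked up after the values of these genes were seen. DNA methylation was not measured, and the letters say nothing of it.

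SMC1B, the meiosis-specific subunit of the cohesin ring that holds sister chromatids together, was read at 1.43, 1.74, 1.497 and 0.539 CPM in the FaDu libraries and at 173, 288, 246, 259.8 and 227 CPM in those of SCC154. Every SCC154 library lay far above every FaDu library, and the log2 fold change was 7.43 (SE 0.29, adjusted p = 6.46e-16). Its neighbour RIBC2, a protein of the ciliary microtubule doublet, was 3.14 ± 0.439 CPM in FaDu and 45.3 ± 9.28 CPM in SCC154, a log2 fold change of 3.83. SEMA5A, a semaphorin that guides axons and migrating cells, had no count in FaDu and 183, 193, 195, 177 and 193 CPM in the SCC154 libraries, at least 517-fold higher. SNHG18, which shares its start region, had 55.03 ± 7.51 CPM in SCC154 and no count in FaDu. In the other direction TMEM161B, a membrane protein with a role in heart rhythm, was 165, 136, 121 and 89.5 CPM in FaDu against 1 count over all SCC154 libraries, a ratio of 1365 (95% interval 244 to 53951). TMEM161B-DT was 73.1 ± 19.2 CPM against 0. MGMT, which removes alkyl groups from guanine and so protects cells from alkylating drugs, had 58.5, 85.8, 85.4 and 104 CPM in FaDu and none in SCC154, at least 291-fold lower. In the post-hypoxic libraries MGMT again had 78.9 ± 17.7 CPM in FaDu and 0 CPM in SCC154.

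Gene pairs of this kind were followed over the genome. Among 1153 neighbouring tested genes that start within 1000 bases of each other on opposite strands, 167 had both genes called at 2-fold, and in 142 of these (85.03%) the 2 genes differed in the same direction. Among 11053 other neighbouring pairs the figures were 1337 of 1854 (72.1%). Over all pairs, called or not, the share with the same sign was 64.01% for the genes that start close together and 58.9% for the others, a smaller gap. Neighbouring genes share their chromosome segment and can share reads where they overlap, so pairs are not independent and no test was made.

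The highest differences toward SCC154 among well expressed genes were, after SEMA5A, the decoy receptor TNFRSF10D, TMX3, ANKRD1, AJUBA, SNRPN, ID2, SNHG14, SLC43A3 and LYPD5. TNFRSF10D, which binds the death ligand TRAIL without passing on a death signal, had no count in FaDu and 143 ± 45.5 CPM in SCC154 (at least 399.7-fold higher). ANKRD1, a transcript that YAP induces, and AJUBA, an adaptor protein of adherens junctions that restrains the Hippo kinases, had no count in FaDu and 115 ± 24.4 and 114 ± 17.8 CPM in SCC154. ID2, which blocks the DNA binding of basic helix-loop-helix factors, had 1 count over the FaDu libraries and 198, 149.8, 108, 141 and 124 CPM in SCC154, a ratio of 1192 (95% interval 214 to 47108). The transporter SLC43A3 had 1 count in FaDu and 118 ± 16.3 CPM in SCC154. LYPD5, of the Ly6 family of surface proteins, was 0.622 ± 0.7804 and 190.2 ± 36.4 CPM (log2 fold change 8.16, or 9.003 without FaDu replicate 4). Further genes with no count in FaDu and over 60 CPM in SCC154 were G0S2, an inhibitor of fat-droplet lipolysis (80.6 ± 16.1 CPM), CYB5R2, a cytochrome b5 reductase (68.4 ± 4.49), and DHRS9, a retinol dehydrogenase (65.3 ± 14.7). SNRPN and SNHG14 overlap on chromosome 15 and are treated with the imprinted genes below.

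The largest differences toward FaDu began with PRKAA2, the alpha-2 catalytic subunit of the energy sensor AMPK, at 160.2, 143, 133 and 129 CPM in the FaDu libraries and no count in SCC154 (at least 499-fold lower). EEF1A2, the translation elongation factor otherwise found in muscle and neurons, was 295, 339.7, 332 and 332 CPM in FaDu against 1 count in SCC154, a ratio of 3426 (95% interval 614 to 135359). No SCC154 library reached 1 CPM for either gene. LCP1, an actin-bundling protein typical of blood cells, was 233 ± 20.3 CPM in FaDu and 2 counts in SCC154. The 12 immune markers together reached at most 6.49 CPM in any library, and a part of blood cells in the LCP1 difference was not tested. GPNMB, a membrane glycoprotein of melanosomes and macrophages, was 394 ± 15.7 and 0.696 ± 0.603 CPM. TRPS1, a GATA-type repressor, was 138 ± 15.7 and 0.434 ± 0.509 CPM (log2 fold change -8.02, or -8.82 without SCC154 replicate 5). PLIN2, the coat protein of fat droplets, was 129 ± 15.3 CPM against 0.2804 ± 0.434 CPM, and ARHGAP6, a GTPase-activating protein, 105 ± 11.1 CPM against 1 count. Others without a count in SCC154 were the calcium-binding protein CALB2 (86.2 ± 9.48 CPM in FaDu), SVIP, which inhibits protein degradation at the endoplasmic reticulum (85.9 ± 16.8), and PCLO, a scaffold of synapses (77.96 ± 34.7). The zinc-finger gene ZNF791 (77.6 ± 2.18 CPM) and NOS1, the neuronal nitric oxide synthase (74.2 ± 20.9 CPM), were 0 there too. The antisense RNA AFAP1-AS1 was 91.03 ± 14.6 CPM in FaDu and 0 in SCC154, with AFAP1 itself at 4.63 ± 1.41 and 44.3 ± 11.1 CPM. Whether counting used the strand is not given in the sources used here, so reads of the pair cannot be told apart.

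Missing genes also lay side by side on the chromosomes. Of 273 tested genes with at most 3 counts over the FaDu libraries and more over those of SCC154, 65 lay in 27 runs of neighbouring tested genes. Of the 294 with at most 3 counts in SCC154 and more in FaDu, 83 lay in 36 runs. The longest run in FaDu was 6 genes on the X chromosome from RRAGB to ZXDB (chrX:55717739-57597545), a stretch that also holds UBQLN2, NBDY, SPIN3 and FAAH2. None had a count in any FaDu library of either population. UBQLN2, a shuttle protein of the proteasome, was 45.5 ± 1.63 CPM in SCC154, and NBDY, a small protein of processing bodies, 44.97 ± 5.98 CPM. A run of 3 on chromosome 18 (chr18:50878734-51218304) held ME2, SMAD4 and MEX3C. SMAD4, the common partner of all receptor-activated SMAD proteins, had no count in the 4 FaDu libraries and 45.9, 57.5, 57.5, 46.4 and 49.3 CPM in SCC154 (at least 140.3-fold higher). ME2, the mitochondrial malic enzyme, was 0 and 24.9 ± 2.52 CPM, and MEX3C, an RNA-binding ubiquitin ligase, 0 and 44.95 ± 4.36 CPM. Over the 5 post-hypoxic FaDu libraries SMAD4 and MEX3C had no count and ME2 had 1. TMX3 and CCDC102B lay together farther along chromosome 18, with 140.1 ± 11.8 and 3.75 ± 1.27 CPM in SCC154 and 0 in FaDu. In SCC154 the longest run was 6 zinc-finger genes on chromosome 19 from ZNF773 to ZNF551. Shorter runs paired FANCF, a Fanconi anaemia repair gene (22.4 ± 2.84 CPM in FaDu, 0 in SCC154), with SVIP on chromosome 11 and NOS1 with KSR2 on chromosome 12. The runs and their genes were chosen by position after their values were seen, and copy number was not measured.

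The RB and cyclin genes went both ways. Of 28 tested genes of the p16, RB and cyclin kinase list, 10 were higher and 6 lower in SCC154, with a median log2 fold change of 0.20. CDKN2A (chr9:21967753-21995301, minus strand) was 68.5, 67.9, 66.4 and 68.5 CPM in the FaDu libraries and 189.5, 187, 193, 193 and 203 CPM in those of SCC154. Every SCC154 library was above every FaDu library, with a log2 fold change of 1.51 (SE 0.098, adjusted p = 3.58e-12). The transcripts for p16 and for ARF share their 3′ end, so the tag counts do not tell them apart. The other inhibitors CDKN1A (4.37 ± 0.3503 and 31.2 ± 7.24 CPM), CDKN2D (27.2 ± 5.27 and 98.9 ± 32.5) and CDKN1C (5.69 ± 1.29 and 11.99 ± 3.42) were higher as well. CCND1, the D-type cyclin that loads CDK4 and CDK6, was the reverse, at 847, 799, 846 and 849.8 CPM in FaDu and 196, 107, 113, 144 and 150.1 CPM in SCC154 (log2 fold change -2.55, SE 0.21). CCND3 (-1.13), E2F3 (-1.06) and CDK4 (-0.49996) were lower too, and CCNE2 was higher (1.77). RB1 (68.4 ± 8.62 and 78.3 ± 7.66 CPM), CDK6 (334 ± 34.5 and 304 ± 43.5) and E2F1 (34.1 ± 6.39 and 45.5 ± 8.896) did not pass the test. E2F1 did pass, at log2 fold changes of 0.51, 0.50 and 0.54, without FaDu replicate 3, FaDu replicate 4 or SCC154 replicate 3. CCND1 overlaps LTO1, CCNE2 overlaps INTS8 and CDK4 overlaps TSPAN31 at their ends.

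Genes of the cell cycle, many of which E2F factors drive, differed in both directions. Of 48 G1/S and replication genes 8 were higher (16.7%) and 22 lower (45.8%), against 34.5% each way over all genes tested. The median was -0.11, and -0.29 in the post-hypoxic libraries. TYMS (-1.69), which makes thymidylate, the licensing inhibitor GMNN (-1.66) and the helicase part GINS2 (-1.31) led the lower members. The histone chaperone CHAF1B (1.39), POLD3 (1.0003) and LIG1 (0.81) led the higher ones. Of 39 G2/M genes 16 were higher (41.0%) and 9 lower (23.1%), with a median of 0.16, and 0.04 in the post-hypoxic libraries. Calls at 2-fold took in 20.8% of the G1/S list and 12.8% of the G2/M list, against 37.5% of all genes tested. The kinesins KIF4A (1.45) and CENPE (1.17) and the phosphatase CDC25B (1.17) were higher, and the transcription factor FOXM1 (-1.18), the checkpoint kinase TTK (-1.07) and CCNB1 (-0.64) were lower. MKI67, the proliferation marker, was 822 ± 37.6 CPM in FaDu and 1341 ± 124 CPM in SCC154. TYMS, GINS2 and FOXM1 each overlap a gene on the other strand (ENOSF1, GSE1 and ITFG2). In neither list was a member at least 4-fold apart.

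CDKN1A, which halts the cycle at G1, was 4.75, 3.92, 4.49 and 4.31 CPM in FaDu and 33.6, 26.6, 21.9, 40.8 and 33.2 CPM in SCC154, with no overlap. Of 38 genes for repair of double-strand breaks 15 were higher and 13 lower (median -0.12). The BLM helicase was 237 ± 29.3 CPM in FaDu and 45.1 ± 4.48 CPM in SCC154, and RAD52 (-2.19) and XRCC3 (-1.55, overlapping KLC1) were lower with it. MRE11, the nuclease that starts end resection, was 132 ± 11.5 and 342 ± 18.6 CPM, with the end-joining ligase LIG4 (1.24) and BRCA2 (0.92) also higher.

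Germline genes, which somatic cells keep shut, were read in both lines. Of 51 listed genes of meiosis and the germline 14 passed the filter, 7 higher and 5 lower in SCC154. Beside SMC1B and RIBC2, MEI1, needed for meiotic breaks (0.699 ± 0.562 and 10.4 ± 2.92 CPM), and TAF7L, a testis form of a general transcription factor subunit (0.818 ± 0.806 and 40.4 ± 5.81 CPM), were higher. The log2 fold change of TAF7L was 5.48, or 6.21 without FaDu replicate 1. BRDT, the testis bromodomain protein, was 12.48 ± 1.93 CPM in FaDu against 2 counts in SCC154. SYCP2L (9.82 ± 2.19 and 0.768 ± 0.946 CPM) was lower, by -3.603 or, without SCC154 replicate 2, -4.59 on the log2 scale. SYCP2, a lateral element of the synaptonemal complex, was 5.14 ± 3.32 and 5.99 ± 1.73 CPM and did not pass the test. STAG3, a meiotic cohesin subunit, was too low to test, with 2 counts over the FaDu libraries and 54 over those of SCC154. Of 33 MAGE and other cancer-testis antigens 30 had no count in any of the 9 libraries. The only 2 tested were on in FaDu, MAGEA4 at 96.02, 106, 125 and 132 CPM and PRAME at 40.9, 65.8, 35.4 and 29.1 CPM, with no SCC154 count for either (at least 400.4-fold and 154-fold lower). MAGEA4 belongs to a family of near-identical copies, so its share of the reads is uncertain. Of 25 tested genes of a list drawn up for repressors of germline genes, 6 were higher and 10 lower (median -0.18). Among the called members were the methyltransferases DNMT3A (0.99), DNMT3B (-1.14) and EHMT2 (-1.23), with L3MBTL2 (-1.02, overlapping CHADL), KDM5C (0.78) and KDM6A (0.83). KDM6A stands in the list but is not itself such a repressor.

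**Figure D2:**
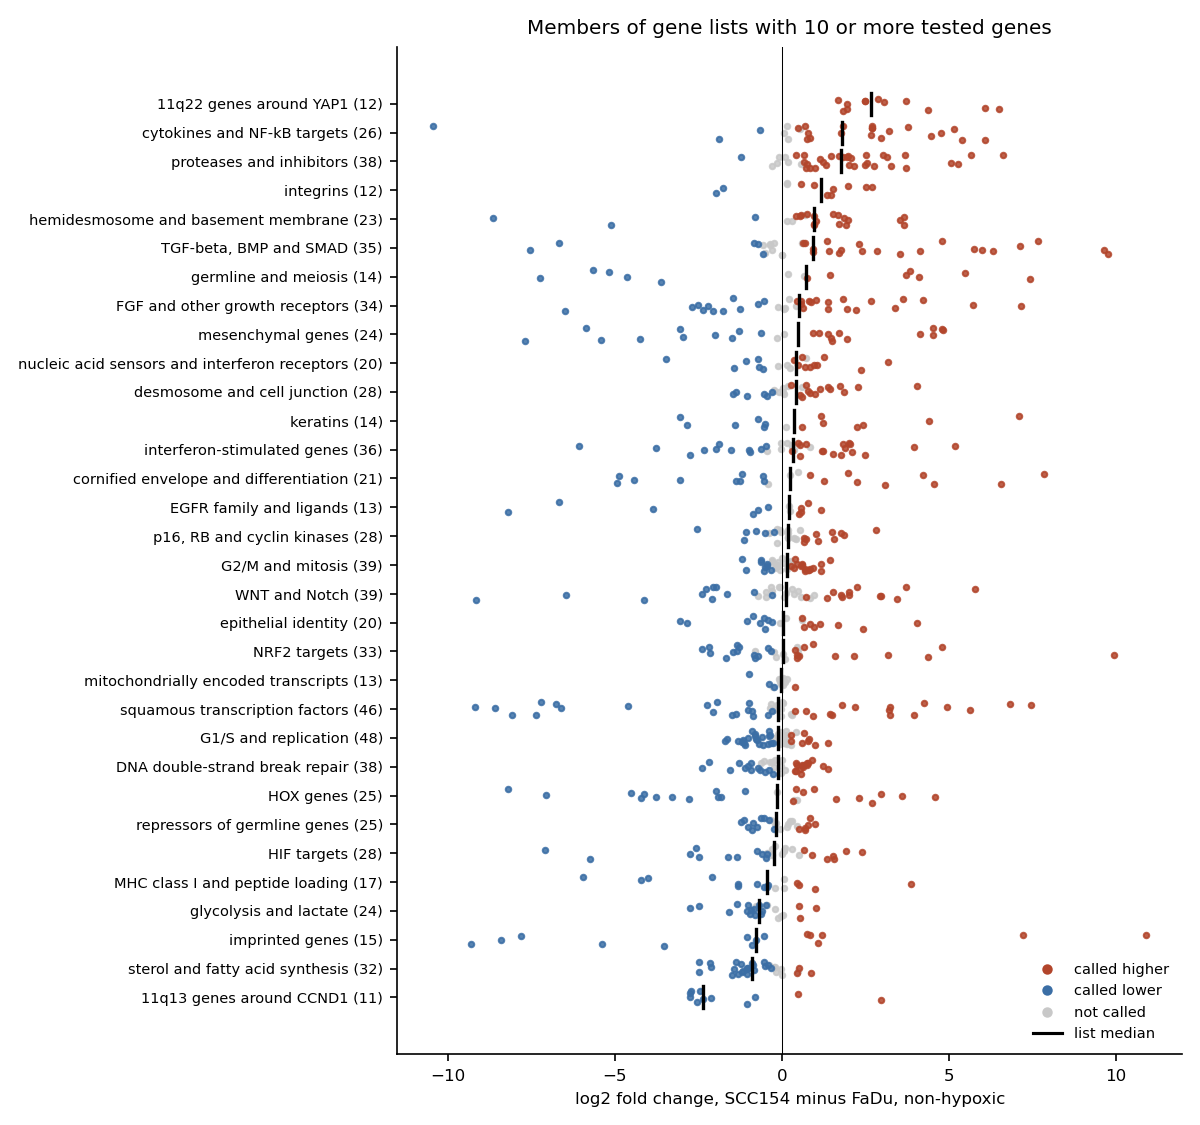
Log2 fold change (SCC154 minus FaDu, non-hypoxic) of every tested member of the lists with 10 or more tested genes (1 list is not shown), on the horizontal axis; lists are ordered by their median, marked by a bar, with the number tested in parentheses, and points are coloured by the call of the edgeR test. Lists of genes on 11q22, of cytokines and of proteases lie to the right of 0 (medians 2.68, 1.80 and 1.78), and those of genes on 11q13, of sterol synthesis and of imprinted genes to the left (medians -2.35, -0.88 and -0.76).

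Keratins went both ways. Of 14 tested keratins 7 were higher and 6 lower (median 0.38). KRT5, the basal type II keratin, was 175, 191, 195 and 223 CPM in the FaDu libraries and 21.7, 24.6, 19.6, 26.9 and 24.05 CPM in SCC154, and its partner KRT14 was 23.5 ± 7.37 and 3.28 ± 1.303 CPM. Both were lower in every SCC154 library than in any of FaDu, as was KRT15 (-1.41), while the simple-epithelial pair KRT8 (-0.51) and KRT18 (-0.54) differed by less. The call of KRT8 was lost without FaDu replicate 3 (-0.41) or 4 (-0.38). KRT6A, a keratin of wounding and activation, was 80.3, 45.7, 66.4 and 129 CPM in FaDu and 381, 407, 439, 511 and 416 CPM in SCC154. KRT80 (26.1 ± 5.61 and 124 ± 12.6) and the hair keratin KRT81 (0.2596 ± 0.3002 and 41.02 ± 8.11) were higher with it. Keratins of the KRT6 and KRT81 families share sequence, and KRT80 and KRT81 overlap neighbours, so these splits are uncertain. TP63, the master factor of the basal layer, was 74.2 ± 7.08 and 41.3 ± 8.91 CPM (-0.85), and EPCAM was 254 ± 6.999 and 161 ± 3.195 CPM.

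Of 21 genes of the cornified envelope and late differentiation 9 were higher and 9 lower, and the directions split within gene families. The median was 0.25, or -0.12 without SCC154 replicate 1. FLG, filaggrin, which bundles keratin in the outermost layers, was 1.43, 0, 0 and 0.539 CPM in FaDu and 70.6, 139, 119.6, 124 and 175 CPM in SCC154 (log2 fold change 7.86, SE 0.47), or 9.15 without FaDu replicate 1. The S100 protein S100A9 was 0.378 ± 0.5098 and 9.902 ± 3.17 CPM, and ECM1 was 1.42 ± 1.003 and 28.1 ± 9.58 CPM. The kallikrein proteases KLK5 (12.8 ± 3.53 and 0.351 ± 0.354 CPM) and KLK6 (43.5 ± 10.5 and 1.96 ± 0.744) and the protease inhibitor SERPINB13 (19.2 ± 2.24 and 2.34 ± 1.03) were lower. KLK10, named after its value was seen, was higher (27.4 ± 5.28 and 233 ± 50.9).

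Genes that anchor epithelium to its basement membrane leaned toward SCC154. Of 23 tested, 17 were higher and 3 lower, a median of 0.97. The collagen IV chains COL4A1 (2.803 ± 0.993 and 32.96 ± 5.795 CPM) and COL4A6 (0.997 ± 0.741 and 12.99 ± 2.598), perlecan (HSPG2, 10.6 ± 4.9005 and 138 ± 19.8), the laminin chain LAMB3 (1.69) and the hemidesmosome integrin ITGA6 (1.98) were higher. COL7A1, which forms the anchoring fibrils under the hemidesmosome, was 80.3, 74.5, 57.9 and 69.6 CPM in FaDu and 1.48, 0.966, 4.03, 0.434 and 3.32 CPM in SCC154. NID1, which links laminin to collagen IV, was 23.2 ± 7.36 CPM and 0, and FERMT1, kindlin-1, was lower by a small step (-0.82). FERMT1 was 244, 96.2, 87.98, 83.3 and 98.3 CPM in the SCC154 libraries, replicate 1 lying inside the FaDu range of 175 to 254 CPM. Of 28 desmosome and junction genes 14 were higher and 6 lower (median 0.41). CLDN1 (3.2997 ± 1.72 and 56.9 ± 11.04 CPM), NECTIN4 (2.27), GJA1 (1.86) and CDH1, E-cadherin (85.7 ± 11.98 and 188 ± 11.5 CPM), were higher. The desmosome proteins DSP (-1.06) and DSC3 (-1.37) and the tight-junction protein MARVELD2 (-1.45) were lower.

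Mesenchymal genes did not move as a block: 12 of 24 were higher and 10 lower, with a median of 0.49, or -0.10 without FaDu replicate 2. Lower members included the transcription factors TWIST1, at 12.1 ± 2.99 CPM in FaDu and no count in SCC154, and TWIST2, at 26.9 ± 8.61 and 0.567 ± 0.177 CPM, and the cadherin CDH2, at 9.06 ± 3.59 CPM and 1 count. TAGLN, which overlaps PCSK7, was lower at 14.6 ± 15.03 and 1.73 ± 0.766 CPM (-3.05, or -2.002 without FaDu replicate 1). Higher members included FN1, fibronectin, at 4.53 ± 1.69 and 105 ± 13.3 CPM, and CCN2 at 3.16 ± 0.612 and 90.6 ± 8.904 CPM. INHBA, the activin A chain, was 19.97, 6.97, 16.5 and 19.4 CPM in FaDu and 346, 412, 457, 479 and 471 CPM in SCC154. VIM, the mesenchymal filament, had 1 count over the libraries of each line and was not tested. The 11 fibroblast markers summed to 3.33 to 6.49 CPM in FaDu and 4.44 to 6.94 CPM in SCC154, ranges that overlap. The shorter list of 6 summed to 0 to 2.00 CPM and 3.90 to 5.80 CPM, ranges that do not.

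Transcription factors of squamous and foregut identity went both ways, 16 of 46 higher and 19 lower (median -0.11). EHF, an ETS factor of epithelia, was 3.803, 2.61, 1.997 and 3.24 CPM in FaDu and 483, 580.4, 612, 456 and 478 CPM in SCC154 (log2 fold change 7.46, SE 0.33). TP73, a relative of TP63, had 1 count in FaDu and 20.6 ± 7.69 CPM in SCC154. GATA6 was 0.8498 ± 0.455 and 27.7 ± 3.79 CPM, and SOX2 was 1.66 ± 0.951 and 26.99 ± 8.203 CPM with SOX2-OT, the RNA that overlaps it, counted apart. The homeobox genes BARX2 (34.05 ± 5.496 CPM) and MSX1 (22.6 ± 2.54 CPM) and the forkhead factor FOXA2 (15.7 ± 3.29 CPM) were on in FaDu and had no count in SCC154. NFIB was 49.3 ± 3.64 and 60.01 ± 7.13 CPM and did not pass the test in these libraries (it did without SCC154 replicate 3, at 0.36).

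HOX genes, which record position along the body axis, lie in 4 clusters. All 5 tested genes of HOXB on chromosome 17 were lower in SCC154 (median -4.52). HOXB2 (17.3 ± 3.61 CPM) and HOXB5 (7.69 ± 3.48 CPM) had no count there. HOXB4 was 92.7 ± 14.3 and 4.06 ± 2.11 CPM, HOXB7 41.1 ± 7.51 and 2.197 ± 0.944 CPM and HOXB3 17.6 ± 3.11 and 0.998 ± 0.663 CPM. Of 9 HOXA genes 5 were lower and 2 higher (median -1.10), with HOXA7 at 173 ± 21.7 and 17.6 ± 5.69 CPM. HOXC leaned the other way, 5 of 7 higher and HOXC4 lower (median 0.62), led by HOXC13, a factor of hair and nail, at 3.63 ± 1.56 and 28.96 ± 3.26 CPM. Of 4 HOXD genes HOXD9, HOXD10 and HOXD11 were higher and HOXD8 was lower (median 3.15), HOXD10 being 1.59 ± 0.906 and 19.7 ± 5.001 CPM. Neighbouring HOX transcripts overlap (HOXB4 with HOXB3, HOXD11 with HOXD10). HOX genes beyond HOXB2, HOXB4, HOXB7, HOXC13, HOXD10 and HOXD11 were named after their values were seen.

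**Figure D3:**
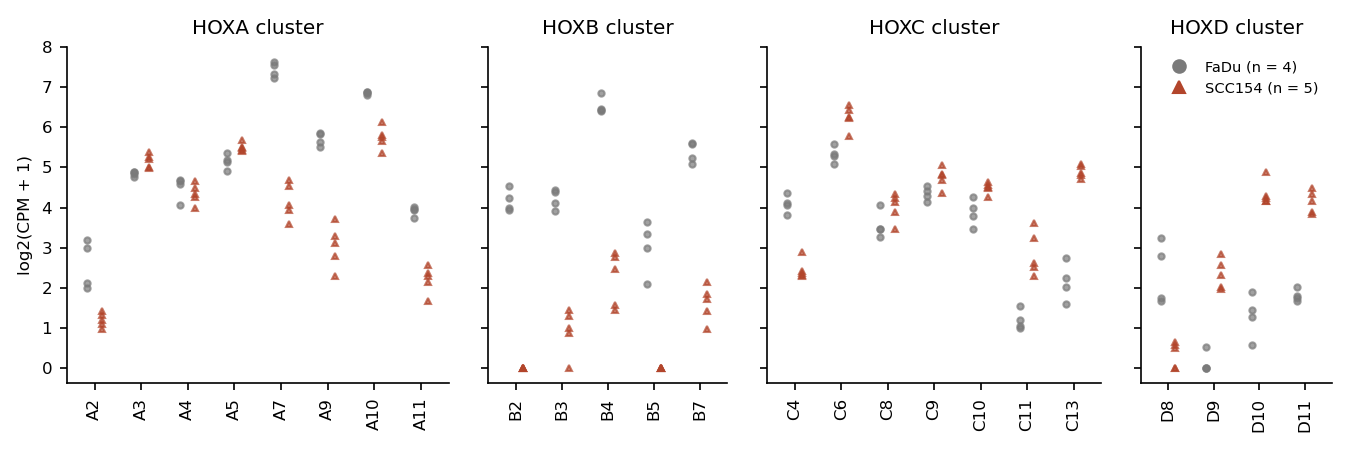
Level of tested genes of each HOX cluster (1 of the 9 HOXA genes is not shown), as log2(CPM + 1), in order of their number; circles are the 4 FaDu libraries and triangles the 5 SCC154 libraries. In the HOXB panel all triangles lie below the circles, while in the HOXD panel they lie above for HOXD9, HOXD10 and HOXD11.

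Differences also ran along chromosome segments. Around CCND1 on 11q13, a segment often gained in HPV-negative carcinoma, 9 of 11 tested genes were lower in SCC154 and 2 higher (median -2.35). CTTN, the actin regulator cortactin, was 2383 ± 266 CPM in FaDu and 467 ± 38.2 CPM in SCC154. PPFIA1, which overlaps CTTN-DT, was 1869 ± 142 and 276 ± 13.3 CPM, and SHANK2 (-2.74) and MYEOV (-2.71) were lower by about as much. The exceptions were ANO1, a calcium-activated chloride channel between LTO1 and FADD, at 18.6 ± 7.12 CPM in FaDu and 145 ± 14.97 CPM in SCC154, and NADSYN1 (0.48). On 11q22, another recurrent segment of gain in carcinomas, all 12 tested genes were higher (median 2.68). YAP1, the co-activator that the Hippo kinases hold back, was 80.3, 75.3, 95.8 and 112 CPM in FaDu and 683, 642, 699, 611 and 665 CPM in SCC154. The inhibitors of apoptosis BIRC2 and BIRC3 lie beside it. BIRC2 was 57.9 ± 2.98 and 483 ± 20.5 CPM, and BIRC3 was 5.704, 6.97, 5.99 and 3.24 CPM in FaDu and 447, 403, 301, 373 and 364 CPM in SCC154. The ciliary genes CEP126 (7.69 ± 3.19 and 164 ± 17.1 CPM) and CFAP300 (0.244 ± 0.281 and 27.1 ± 4.91 CPM) are also among the 12. YAP1, BIRC2 and CTTN were named after their values were seen. Copy number was not measured, and its part in these differences was not tested.

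The same was followed in every stretch of 25 neighbouring tested genes, of which there were 11615. Of these 521 had a median log2 fold change above 1 and 262 below -1. Outside chromosome 19 the highest were on chromosome 11 from FUT4 to MMP12 (median 2.50, 21 genes higher), and chromosome 8 from PPP1R3B to MTUS1 (2.34, 22 higher). They were followed by chromosome 5 from OSMR-DT to MRPS30-DT (2.10, all 25 higher) and chromosome 3 from TAMM41 to RBSN (2.07, 23 higher). The chromosome 5 stretch (chr5:38710367-44808777) holds FYB1, an adaptor better known from T cells, at 42.3 ± 12.9 and 728 ± 116 CPM, and the oncostatin M receptor OSMR at 10.9 ± 2.13 and 77.1 ± 3.72 CPM. The lowest outside chromosome 19 were on chromosome 15 from KLHL25 to CIB1 (median -2.07, 21 of 25 lower) and on chromosome 11 from UNC93B1 to SHANK2 (-1.98, 22 of 25 lower). The chromosome 15 stretch holds the nuclease AEN (150.2 ± 13.7 and 16.8 ± 5.62 CPM), IDH2 (93.1 ± 16.4 and 16.7 ± 1.33 CPM) and SEMA4B (265 ± 19.95 and 17.6 ± 3.45 CPM). In the chromosome 8 stretch TUSC3, a subunit of the N-glycosylation complex, went against its neighbours with 39.1 ± 9.62 CPM in FaDu and none in SCC154. In the post-hypoxic libraries the medians of these 6 stretches were 2.43, 2.53, 2.00, 1.76, -2.14 and -1.81. With stretches of 50 genes the lowest median lay on chromosome 15 (WHAMM to HDDC3, -1.48) and the highest on chromosome 19 (CIC to KLC3, 2.26). Genes of these stretches other than AEN and SHANK2 were named after their values were seen.

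**Figure D4:**
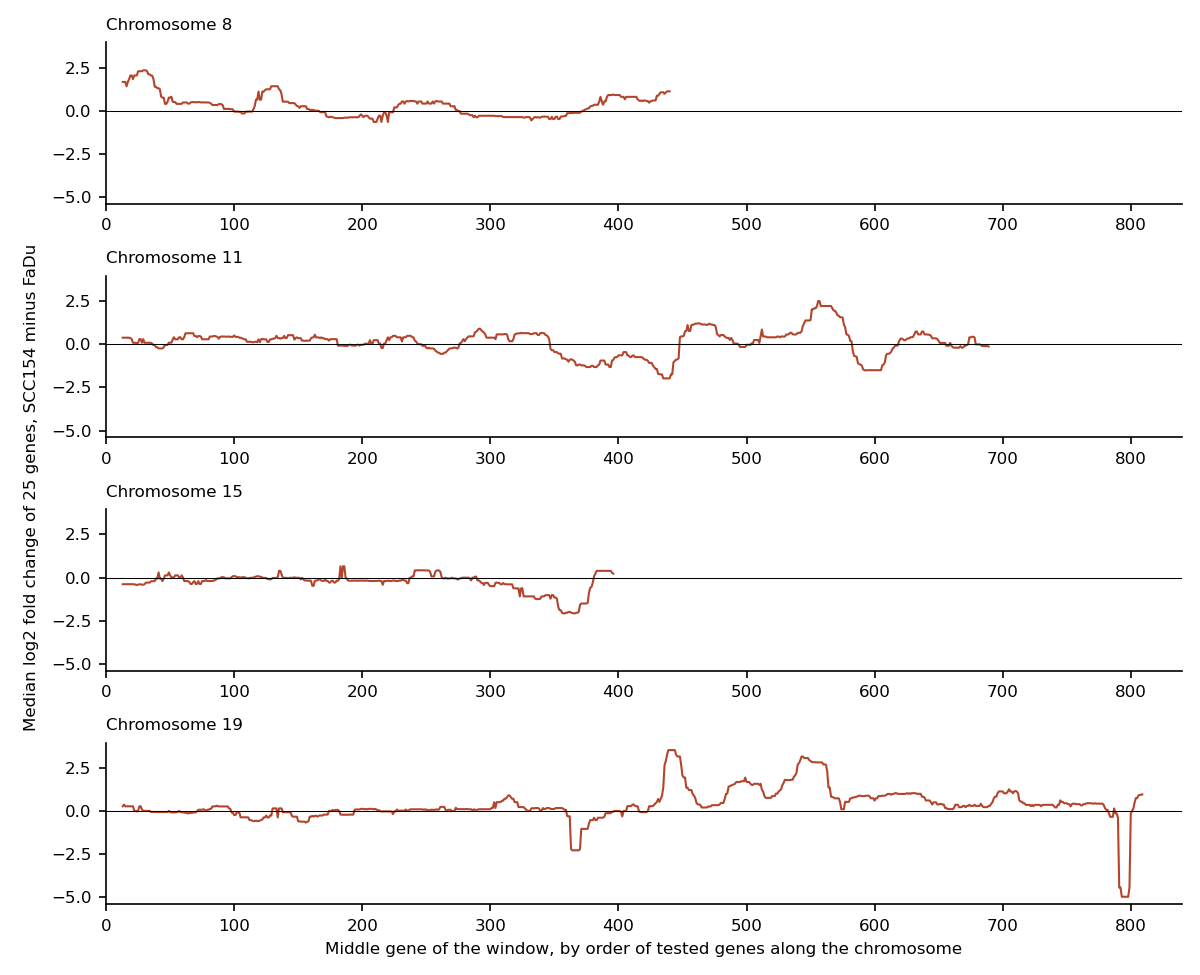
Median log2 fold change (SCC154 minus FaDu, non-hypoxic) of 25 neighbouring tested genes along chromosomes 8, 11, 15 and 19, against the order of tested genes on the chromosome. Chromosome 19 reaches both the highest and the lowest medians of stretches of this length (3.53 and -4.96), and chromosome 11 falls to -1.98 around CCND1 and reaches 2.50 around YAP1.

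Chromosome 19 carries most human zinc-finger genes of the KRAB family, repressors that lie in clusters of near copies. Of 162 tested genes there with a zinc-finger symbol 118 were at least 2-fold apart (72 higher, 46 lower; 72.8%), against 34.8% of 224 such genes elsewhere and 37.3% of 659 other genes of chromosome 19. Their median absolute log2 fold change was 2.52, against 0.70 in either of those sets. The 2 stretches given next had medians of opposite direction, and each held genes of both directions. The stretch from CAPNS1 to ZFP30 had a median of 3.53, with 18 of 25 genes higher and 6 lower. In it ZNF569 was 4.43 ± 1.16 and 244 ± 26.5 CPM and ZNF567 4.79 ± 1.65 and 91.3 ± 4.78 CPM. The stretch from ZNF470 to ZNF274 had a median of -4.96 (-4.43 with genes at 0 set to their bound), with 14 of 25 genes lower and 8 higher. In it ZNF551 was 26.2 ± 4.96 CPM and 1 count and ZNF134 14.8 ± 1.53 CPM and 0. Among genes that went against the median, ZFP82 in the first stretch was 57.5 ± 4.67 and 1.46 ± 0.683 CPM, and ZNF587 in the second was 41.4 ± 12.8 and 183 ± 37.5 CPM. In all, 35 of the 162 had at most 3 counts in SCC154 and 8 had so few in FaDu. These genes were named after their values were seen, and near copies can take each other's reads. A stretch from CNFN to ZNF284 had all 25 genes higher in SCC154 (median 3.16) and holds the pregnancy glycoproteins PSG1, PSG4 and PSG5, with no count in FaDu, and PLAUR, the urokinase receptor, at 19.8 ± 3.32 and 254 ± 28.2 CPM.

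TGF-beta, activin and BMP ligands signal through serine kinase receptors to the receptor-activated SMAD proteins, all of which work with SMAD4. Of 35 tested genes of this group 21 were higher in SCC154 and 5 lower (median 0.94). Among the ligands INHBA and INHBB (0.378 ± 0.254 and 86.3 ± 11.6 CPM) were higher, and BMP7 was lower at 28.7 ± 7.46 CPM in FaDu against 1 count. Among receptors ACVR1B was lower (-0.72) and, named after their values were seen, TGFBR2 was 5.87 ± 1.0998 CPM in FaDu with no count in SCC154 and TGFBR1 was higher (1.35). Of the targets that BMP signals induce, ID2 was higher, as were ID1 (279 ± 62.5 and 1389 ± 141 CPM) and ID3 (5.23 ± 2.94 and 91.1 ± 32.7 CPM), both named after their values were seen. The binding protein LTBP3 was lower (-0.83).

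EGFR, the growth receptor most often raised in these carcinomas, was 360.3, 384, 403 and 413 CPM in FaDu and 407, 626, 713, 565 and 616 CPM in SCC154, higher by 0.59 on the log2 scale (SE 0.12, adjusted p = 1.13e-04). SCC154 replicate 1 lay inside the FaDu range and the other 4 above it. Its ligands went both ways. EREG, epiregulin, was 281, 197, 230.1 and 247 CPM in FaDu and 1.48, 0, 0.575, 0.434 and 1.24 CPM in SCC154. AREG was 692, 549.6, 588 and 514 CPM and 117, 284, 389.9, 407 and 428 CPM. TGFA (23.8 ± 5.64 and 53.9 ± 8.14 CPM) and HBEGF (0.78) were higher. AREG was lowest in SCC154 replicate 1. Of the 13 genes of the family 5 were higher and 6 lower (median 0.23). Of 39 WNT and Notch genes 13 were higher and 11 lower (median 0.12). The ligands WNT10A (0.689 ± 0.566 and 43.3 ± 12.02 CPM) and WNT7A (3.46) and the Notch target HEY1 (3.704) were higher. The receptor FZD10 (33.5 ± 6.78 CPM in FaDu, 0 in SCC154), the secreted antagonist DKK3 (22.2 ± 7.66 CPM against 2 counts) and the Notch glycosyltransferase MFNG (-4.12) were lower. Of 34 genes of FGF and other growth receptors 18 were higher and 11 lower (median 0.52). IGFBP3, a carrier of insulin-like growth factors, was 16.2, 18.3, 6.49 and 11.9 CPM in FaDu and 776, 772, 742, 638 and 637 CPM in SCC154, with IGFBP7, which overlaps POLR2B, and EFNB1 also higher (3.64 and 3.398). FGFR3 (-2.501), EPHB3 (-2.36) and FGFR1 (-2.21), which overlaps LETM2, were lower.

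Genes of innate immunity did not shift together. Of 36 interferon-stimulated genes 17 were higher and 11 lower, with a median of 0.35, or about 0 (-0.0025) without FaDu replicates 3 and 4. IFI27 was 302, 257, 109 and 83.04 CPM in the FaDu libraries and 2.47, 4.83, 2.3002, 1.73 and 2.49 CPM in SCC154, so that FaDu replicates 1 and 2 were over 2 times above 3 and 4 and all 4 lay above SCC154. BST2, tetherin, which holds budding virus at the membrane, was 33.8, 23.5, 8.98 and 10.8 CPM in FaDu, again with replicates 1 and 2 above the others, and 328, 291, 269, 320.1 and 302 CPM in SCC154. EPSTI1 (0.715 ± 0.592 and 28.3 ± 5.03 CPM) and GBP3 (2.48) were higher, and OASL (-3.78) and IFIT1 (-2.76), which overlaps LIPA, were lower. Of 20 sensors and interferon receptors 10 were higher and 6 lower (median 0.43). STING1, the adaptor that answers cytosolic DNA, was 4.28, 6.097, 3.99 and 4.85 CPM in FaDu and 0.987, 0.483, 0.575, 0 and 0 CPM in SCC154. CGAS, the enzyme that makes its ligand, was 70.8 ± 10.8 and 25.8 ± 3.71 CPM (-1.44). The kinase JAK2 (5.64 ± 1.21 and 51.6 ± 9.75 CPM) and the nucleotide hydrolase SAMHD1 (1.25) were higher, IFNGR1 was higher (0.98), and IFNLR1 (-1.06) and ADAR (-0.72) were lower. Of the APOBEC enzymes APOBEC3B was 14.7 ± 2.11 and 22.5 ± 7.44 CPM (0.603) and APOBEC3C was 186 ± 6.29 and 112 ± 11.6 CPM (-0.74). The call of APOBEC3B was lost without FaDu replicate 3 (0.52) or SCC154 replicate 2 (0.44).

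Antigen presentation by MHC class I leaned toward FaDu, with 10 of 17 genes lower in SCC154 and 4 higher (median -0.44). HLA-C was 318, 325, 380.4 and 417 CPM in FaDu and 8.39, 3.87, 4.03, 7.37 and 4.98 CPM in SCC154, and HLA-B was 372 ± 22.6 and 150.1 ± 22.6 CPM. Neither overlapped between lines, but class I genes are near-identical and the split of reads among them is uncertain. NLRC5, the activator of class I genes, was 89.4, 104, 80.9 and 65.8 CPM in FaDu and 3.46, 7.73, 4.03, 2.602 and 4.98 CPM in SCC154, while the light chain B2M differed little (1032 ± 61.6 and 758 ± 60.7 CPM, -0.44). The aminopeptidases ERAP1 (0.995, overlapping CAST) and ERAP2 (0.51) and the chaperone CALR (0.46) were higher. No gene of MHC class II passed the filter.

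Cytokines and NF-kB targets were mostly higher: 19 of 26 against 3 lower, a median of 1.80. Beside BIRC3, the chemokines CXCL3 (0.971 ± 0.706 and 43.05 ± 11.3 CPM) and CCL28 (1.09 ± 0.238 and 31.2 ± 5.398 CPM) were higher. CXCL1 went against them, with 128, 70.99, 53.9 and 71.7 CPM in FaDu and no count in SCC154 (at least 287-fold lower), and IL18 (61.5 ± 11.7 and 16.7 ± 5.19 CPM) and IL1RN (-0.65) were lower. CXCL1 and CXCL3 are close copies of each other. Immune markers summed to 2.16 to 6.49 CPM in FaDu and 1.24 to 3.46 CPM in SCC154, ranges that overlap.

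Proteases and their inhibitors leaned toward SCC154, with 31 of 38 tested higher and 1 lower (median 1.78). TIMP2 was 12.4, 14.8, 14.5 and 12.9 CPM in FaDu and 472, 519, 492.8, 619 and 546 CPM in SCC154, and TIMP3, which binds the matrix, was 5.59 ± 1.21 and 285 ± 53.4 CPM. The matrix protease ADAMTS1 was 0.455 ± 0.527 and 53.1 ± 12.7 CPM, and the collagenase MMP1, named after its value was seen, 19.3 ± 4.15 and 251 ± 101 CPM. The 1 lower member was the cathepsin inhibitor CST6 (-1.23), a call lost without FaDu replicate 2 (-1.12), FaDu replicate 4 (-1.04) or SCC154 replicate 3 (-0.99). Of 12 integrins 8 were higher and 2 lower (median 1.16). The laminin receptors ITGA6 (179.6 ± 17.5 and 709 ± 45.8 CPM) and ITGA3 (1.54) and the leukocyte chain ITGB2 (2.71) were higher. ITGB5 (-1.97) and ITGB6 (-1.76), which pair with ITGAV, were lower.

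Sterol synthesis and glycolysis genes leaned toward FaDu. Of 32 genes of sterol and fatty acid synthesis 22 were lower in SCC154 and 3 higher (median -0.88). FASN, fatty acid synthase, was lower at 283, 359.7, 344 and 379 CPM in FaDu and 98.2, 74.4, 57.5, 75.9 and 74.6 CPM in SCC154, with no overlap. Among the 3 higher members were FDFT1 (0.88) and HMGCS1 (0.51), which lie in the raised stretches of chromosomes 8 and 5. Of 24 glycolysis genes 14 were lower and 3 higher (median -0.67). The glucose transporter SLC2A1 was 131, 233, 174 and 251 CPM in FaDu and 26.2, 29.5, 32.8, 31.7 and 26.5 CPM in SCC154. ALDOC and LDHB were lower (-2.48 and -1.58), and PFKP and PFKL, which make the committed step of the pathway, were higher (1.02 and 0.55). Of 28 targets of hypoxia-inducible factor 11 were lower and 7 higher (median -0.24), with NDRG1 lower (-2.58) and ADM (1.94), PFKFB3 (1.57) and BNIP3L (1.53) higher. SLC2A1 and ALDOC stand in both lists. Of 33 targets of NRF2 12 were higher and 13 lower (median 0.03). NFE2L2, which encodes NRF2, was 158 ± 20.7 and 301 ± 25.4 CPM (0.93). The glutathione and quinone enzymes GCLM (250.2 ± 43.1 and 47.3 ± 7.26 CPM) and NQO1 (211 ± 41.1 and 46.9 ± 9.24 CPM) and the malic enzyme ME1 (-2.17) were lower. The aldo-keto reductases AKR1C2 (4.37) and AKR1C3 (3 counts over FaDu and 11.5 ± 4.14 CPM in SCC154), close copies, were higher, as was GSTM3, which had no count in FaDu and 58.1 ± 5.35 CPM in SCC154. Of 13 mitochondrially encoded transcripts 9 did not pass the test, 3 were lower and 1 was higher (median -0.03), led by MT-ND6 (-0.97), the only one encoded on the light strand. Only 2 of the 13 were called without FaDu replicate 1, SCC154 replicate 2 or SCC154 replicate 4.

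Imprinted genes, expressed from the copy of 1 parent, included some of the sharpest contrasts. Of 15 tested 6 were higher and 9 lower (median -0.76). SNRPN, a small nuclear ribonucleoprotein gene of the 15q11 imprinted locus, had no count in FaDu and 106, 106, 109, 133 and 111 CPM in SCC154. The long RNA SNHG14 that reads through it had 3 counts over the FaDu libraries and 288 ± 30.3 CPM in SCC154. UBE3A, which SNHG14 overlaps on the other strand, was 428 ± 28.3 and 409.99 ± 34.9 CPM. PEG10, a retrotransposon-derived gene, and SGCE, which starts head to head with it on chromosome 7, were 83.3 ± 12.7 and 12.96 ± 2.34 CPM in FaDu, against 2 counts and 0 in SCC154. The growth regulator PLAGL1 was 37.3 ± 7.42 CPM in FaDu and 0 in SCC154. GNAS (1.22) and CDKN1C (1.07) were higher. SGCE also overlaps CASD1. PLAGL1, PEG10, SGCE and SNRPN were each read in 1 line and at 0 to 2 counts in the other.

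The same lines were sorted as post-hypoxic cells in 9 further libraries, none of which is in either group compared above. All 18 libraries did share the scaling, the filter on low counts and the estimate of spread. With only the 9 non-hypoxic libraries fitted, 7951 genes were called in place of 8472. Fitted on their own 9 libraries each, 3980 of the 11335 genes tested in both were called at 2-fold in the non-hypoxic libraries. Of these, 3970 differed in the same direction in the post-hypoxic libraries and 3849 were also called there. Across genes, which are not replicates, the 2 sets of log2 fold changes had a Pearson r of 0.974. In the fit of all libraries 8569 genes (69.7%) were called between the post-hypoxic groups.

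**Figure D5:**
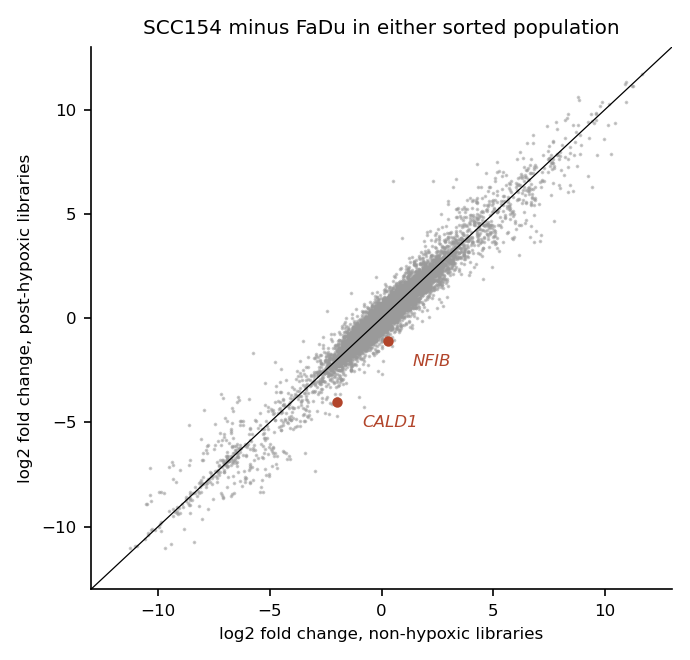
Log2 fold change of SCC154 minus FaDu for each gene tested, in the non-hypoxic libraries on the horizontal axis and the post-hypoxic libraries on the vertical axis; the line marks equal values. CALD1 (-1.99 and -4.03) and NFIB (0.29 and -1.11) are marked, both below the line.

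The line difference itself differed between the sorted populations for 2 genes (0.0163% of those tested) by edgeR's quasi-likelihood test, and 1202 had an unadjusted p under 0.05. CALD1 (caldesmon, a regulator of actin filaments) was 194 ± 14.01 CPM in non-hypoxic FaDu and 48.6 ± 5.79 CPM in non-hypoxic SCC154, and 202 ± 9.55 and 12.2 ± 2.701 CPM in the post-hypoxic libraries. Its log2 fold change was -1.99 among non-hypoxic and -4.03 among post-hypoxic libraries, a difference of -2.03 (SE 0.18, adjusted p = 5.48e-07). NFIB, a nuclear factor of epithelial progenitors, was 49.3 ± 3.64 and 60.01 ± 7.13 CPM in the non-hypoxic libraries and 58.7 ± 8.19 and 27.3 ± 7.21 CPM in the post-hypoxic ones. Its log2 fold changes were 0.29 and -1.11, a difference of -1.3997 (SE 0.22, adjusted p = 0.00811). For the other genes set side by side here, CDKN2A with 1.51 and 1.62, CCND1 with -2.55 and -2.55, HLA-C with -5.95 and -5.58 and EGFR with 0.59 and 0.605 in the non-hypoxic and post-hypoxic libraries, this test found no difference at the threshold, which does not show that the values are equal.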

How the data were processed

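The deposited table holds raw counts per gene symbol for 18 libraries, 1 column each. Per the submitters' processing notes the authors' tools, listed with no role or order, include HISAT2 2.2.1, featureCounts 1.5.1, UMI-tools 1.1.5, Trimmomatic 0.39, FastQC 0.11.9 and DESeq2, and the build is hg38. The sources used here state neither the gene annotation nor the strand setting. Unique molecular identifiers limit copying by PCR, and 3′ tags do not scale with transcript length. Library totals ran from 1654719 to 2503573 counts. Of 41120 symbols, 22591 had a count and 12291 passed filterByExpr. The main test was edgeR 4.0.16 (R 4.3.3) with TMM factors and the quasi-likelihood test, fitted to the 4 group means of all 18 libraries (14 residual degrees of freedom), with Benjamini-Hochberg adjustment over all genes tested. On simulated counts of 12291 genes this comparison recovered 71% of 100 genes changed 2-fold and 97% of 100 changed 4-fold, and called 9 of 12091 unchanged genes. The simulation changed a far smaller share of genes than the 68.9% called here, so its rates need not hold for these data. CPM are over TMM-scaled library sizes. Alternatives were DESeq2 1.42.0, limma 3.58.1 with voom, other scaling, no filter, a replicate block and left-out libraries. Gene positions are from GENCODE on GRCh38, found for 40438 symbols, and promoter windows from RefSeq on GRCh38.p14, found for 9694 of the genes tested. Members, gene lists and alternatives were chosen with earlier results of these data known. Genes were named by size: the 10 largest differences per direction at a mean of at least 50 CPM with no overlap, up to 10 per direction with no count in 1 line, up to 3 called members per direction of each list at a mean of at least 5 CPM, and a set of fixed genes such as CDKN2A, EGFR and KRT5; other genes, among them AFAP1, EPCAM, PLAUR, UBE3A and CST6, were named after their values were seen. Some genes are not reported here.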

Additional observations from a re-analysis of the deposited data

Results flagged for a closer look

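For the genes named above, 1 library stood far from the others of its line in 28 of 440 groups of 4 or 5 libraries with more than 3 counts, by the gap to its nearest neighbour as a share of the group's range (Dixon's 95% critical value). Chance flags about 1 in 20 groups, and no explanation was tested. FaDu replicate 1 was high for HOXB4 (114 CPM, others 83.9 to 87.1) and TAGLN (37.1 CPM, others 5.66 to 8.09). FaDu replicate 2 was high for CHAF1B (18.7 CPM, others 10.2 to 10.9), KRT15 (79.7 CPM, others 49.1 to 53.7) and SYCP2L (13.1 CPM, others 8.49 to 9.17). FaDu replicate 2 was low for CCND1 (799 CPM, others 846 to 849.8). FaDu replicate 4 was high for ERAP2 (56.1 CPM, others 47.9 to 48.96), KRT14 (34.5 CPM, others 18.7 to 20.96) and TP63 (84.7 CPM, others 69.9 to 72.3). FaDu replicate 4 was low for OASL (7.01 CPM, others 12.4 to 12.6). SCC154 replicate 1 was high for AEN (26.7 CPM, others 13.01 to 15.9), ALDOC (11.8 CPM, others 4.77 to 5.805), CXCL3 (62.7 CPM, others 34.8 to 42.1), FERMT1 (244 CPM, others 83.3 to 98.3), HOXD10 (28.6 CPM, others 16.9 to 18.4) and PPFIA1 (299.6 CPM, others 267 to 274). SCC154 replicate 1 was low for BNIP3L (159 CPM, others 197 to 211), ECM1 (11.8 CPM, others 29.02 to 35.3) and TNFRSF10D (64.7 CPM, others 151 to 175). SCC154 replicate 2 was high for IFI27 (4.83 CPM, others 1.74 to 2.49), KIF4A (260.5 CPM, others 207 to 223), SYCP2L (2.42 CPM, others 0 to 0.575) and ZNF567 (99.5 CPM, others 87.5 to 90.9). SCC154 replicate 3 was low for BIRC2 (449 CPM, others 486 to 501). SCC154 replicate 4 was high for ADAMTS1 (75.04 CPM, others 43.1 to 52.2), DHRS9 (91.1 CPM, others 54.8 to 62.6) and SNRPN (133 CPM, others 106 to 111). SCC154 replicate 5 was high for MYEOV (7.46 CPM, others 2.47 to 3.87).

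The difference between the lines itself differed between the post-hypoxic and the non-hypoxic libraries, by the interaction contrast of the edgeR fit, for CALD1 (-2.03 on the log2 scale) and for NFIB (-1.40).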

How the results depend on the processing

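The count of genes called between the non-hypoxic lines was 8333 with DESeq2 and its size factors, 8407 with limma voom, 8443 with upper-quartile factors, 9798 without the filter on low counts, 7951 when only the 9 libraries compared were fitted and 8059 to 8343 when 1 library was left out. Of calls at 2-fold there were 4512 to 4794 when 1 library was left out, and 3106 when edgeR's glmTreat tested against a fold of 2. Whether replicate numbers mark pairs was not settled, and the main fit did not pair them. Same-numbered libraries of the lines had correlations of deviations of -0.09 to 0.29 over only 4 pairs, and unlike numbers -0.39 to 0.23. On the second principal component, an axis of variation over all 18 libraries, non-hypoxic and post-hypoxic FaDu lay at -27.7 and -20.5 for replicate 1 and 18.9 and 19.1 for replicate 4. SCC154 replicate 2 lay at -9.63 and 22.4. With the replicate block 8727 genes were called. Without FaDu replicates 1 and 2 the count was 7954 and without 3 and 4 it was 7511. Members of lists called numbered 605 to 620, and called post-hypoxic genes 8228 to 8445 (4605 to 4825 at 2-fold), when 1 library was left out. The line difference that differed between populations was called for 21 genes with DESeq2, 51 without the filter, 5 with the replicate block, 3 with limma voom and 2 to 3 when 1 library was left out; the cause was not tested. Genes with no count in 1 line numbered 89 to 116 for FaDu and 160 to 177 for SCC154 when 1 library was left out. The highest and lowest window medians were 4.25 and -6.82 in windows of 15 genes, both on chromosome 19, and 2.26 and -1.48 in windows of 50, where the lowest moved to chromosome 15. Of 4278 values of 252 named genes under these alternatives 4254 kept their direction and side of the threshold, 15 lost the call, 9 gained it and none changed direction while called. Without FaDu replicates 1 and 2 the calls of CALR (0.19) and KDM6A (0.82) were lost, and without 3 and 4 those of CCNB1 (-0.22) and NADSYN1 (0.39). List medians near 0 changed sign under some alternatives (epithelial identity, cornified envelope, mesenchymal, HOX, interferon-stimulated, NRF2 and mitochondrial lists). Depth set the limits: 1 CPM was 1.68 to 2.44 counts in a library, so genes under a few CPM rest on few reads.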
